A study of Mus musculus with 6 samples.

Results

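The genes of 10 proteins that sit on the synaptic vesicle were followed: the synapsins Syn1, Syn2 and Syn3, synaptophysin (Syp), the synaptogyrins Syngr1 and Syngr3, the SV2 glycoproteins Sv2a, Sv2b and Sv2c, and the vesicular glutamate transporter Slc17a7 (VGLUT1). They were taken by gene symbol, each matching a single Ensembl identifier, from the 52550 genes with a count, and all 10 were among the 17621 genes that passed the filter on low counts. The splicing table held 18 events of these genes among its 40961 events, in 6 of the 10 genes.

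The study asked what changes in hippocampal RNA when the long isoform of the RNA-binding protein hnRNP DL (L-DL) is knocked down. Male wild-type C57BL/6 J mice received an adeno-associated virus (AAV) in CA1 of both hemispheres at 8 weeks of age, carrying either a control shRNA (3 libraries, labelled WT) or several tandem L-DL shRNAs, each behind an H1 promoter (3 libraries, labelled hnRNPDL-KD, here L-DL KD). A CamkIIα promoter in the L-DL vector drove only the zsGreen reporter, so the shRNAs were not limited to neurons by it. RNA came from hippocampal tissue whereas the virus went into CA1, and by the methods of the study the control virus was injected at the higher titre. Another label calls the L-DL KD mice -/-, although the mice were wild type in genotype, and the labels do not say that each library was a separate mouse, so the p-values measure the spread between these libraries, which may be technical.

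The libraries held between 16052529 and 17913064 counts. The count of Hnrnpdl, the targeted gene, was 2862, 3120 and 2689 in WT and 3939, 2680 and 2904 in L-DL KD libraries (so called by their label), with a log2 fold change of 0.03 ± 0.12 (SE) and an edgeR adjusted p of 0.898, so these counts, which do not separate the long from the short isoform, gave no check of the knockdown. The study itself assessed the knockdown by immunoblot of L-DL protein in the injected brains. Of the marker lists, 8 of 10 neuron markers were lower in L-DL KD, with Rbfox3 and Snap25 among them and Nefl higher, and their summed level was 4351 to 4523 CPM (counts scaled to a common library size) in WT and 2946 to 3508 CPM in L-DL KD. All 10 microglia markers were higher (1391 to 1740 CPM in WT, 2911 to 3791 CPM in L-DL KD). Of the glutamatergic neuron markers 3 of 5 were lower (5191 to 5483 CPM, then 3282 to 3650 CPM), and so were 3 of 5 GABAergic markers (535 to 594 CPM, then 201 to 348 CPM) and 3 of 6 astrocyte markers, with 1 higher (4769 to 5264 CPM, then 3912 to 4708 CPM). Oligodendrocyte markers gave 1 of 6 higher (7565 to 8082 CPM, then 6540 to 9558 CPM), endothelial markers 2 of 4 higher (203 to 221 CPM, then 242 to 306 CPM), and choroid plexus markers none of 4, although their sum ran from 430 to 4578 CPM in WT and from 28.9 to 5129 CPM in L-DL KD. None of these markers was at 0 in any library. In bulk tissue, fewer cells of a type and less RNA per cell cannot be told apart.

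Synaptic vesicles store transmitter at the presynaptic terminal and release it by fusing with the terminal's membrane. Synapsins are phosphoproteins on the outside of the vesicle that tether it to other vesicles and to actin in the reserve pool. Synaptophysin and the synaptogyrins are related proteins that cross the vesicle membrane several times, and synaptophysin binds the vesicle SNARE synaptobrevin. SV2 proteins are transporter-like glycoproteins that interact with the calcium sensor synaptotagmin, and SV2A is the binding site of the antiepileptic drug levetiracetam. VGLUT1 fills vesicles with glutamate and is the main vesicular glutamate transporter of hippocampal pyramidal cells.

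The members did not move together. Sv2b fell in L-DL KD to 0.406 of its WT mean while its paralog Sv2c rose to 1.80 times its own, and Syngr1, Slc17a7, Syn2, Syp and Sv2a fell by smaller amounts. In all, 6 of 10 members were lower by edgeR's quasi-likelihood test at an adjusted p under 0.05, against 15.0% of all genes tested, and 1 was higher, against 15.6%. The other members, Syn1, Syn3 and Syngr3, did not pass the test. The number of members called lower was 2 without WT replicate 1, WT replicate 3 or L-DL KD replicate 2, 3 without WT replicate 2 or L-DL KD replicate 3, and 7 without L-DL KD replicate 1, and Sv2c was called higher in each case. The CPM of the groups did not overlap for 7 of 10 members, against 47.2% of all genes. The median log2 fold change was -0.30 over the members and 0.01 over all genes tested. In all 10 members, replicate 3 was the lowest of the L-DL KD libraries, and the summed neuron marker counts were also lowest in that library (49432, against 63664 and 61362 in the other L-DL KD libraries and 69732 to 73952 in WT). The part of the neuron markers in these changes was not tested beyond the scaling that follows.

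**Figure D1:**
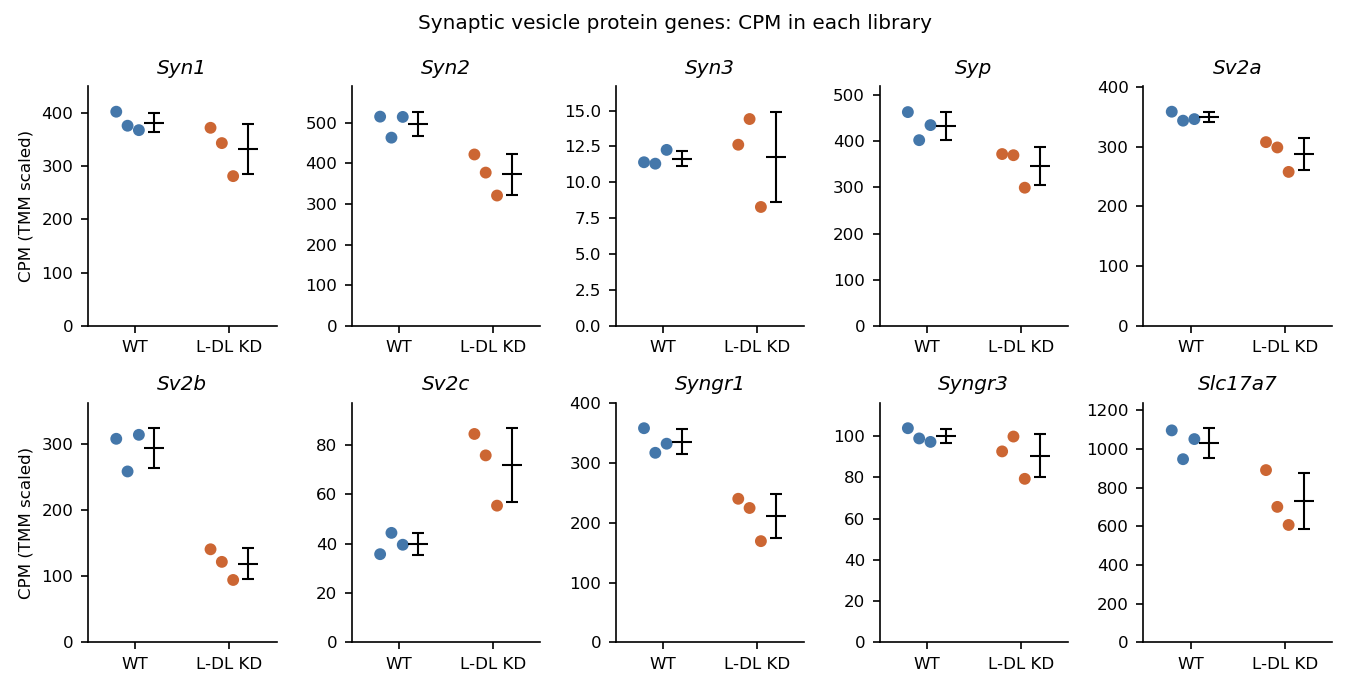
CPM of each member (vertical axis, scaled by TMM and starting at 0) in the 3 WT libraries (blue) and the 3 L-DL KD libraries (orange), with the group mean ± SD as black bars. The L-DL KD points lie below the WT points for Syn2, Syp, Sv2a, Sv2b, Syngr1 and Slc17a7, above them for Sv2c, and overlap them for Syn1, Syn3 and Syngr3.

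When the libraries were scaled to the summed counts of the 10 neuron markers, an alternative chosen after seeing the data, the median log2 fold change of all genes moved to 0.44, and that of the members to 0.13. Snap25, the gene of a synaptic protein, gave 22006 of the 73389 counts of that sum in WT replicate 1. Its mean level fell from 1334 CPM in WT to 664.5 CPM in L-DL KD, so this scaling is not independent of synaptic genes. Of all genes, 675 were then lower and 8195 higher, against 2636 and 2743 with TMM scaling. Sv2b stayed lower (log2 fold change -0.88 ± 0.11 SE, edgeR adjusted p = 0.000394) and Sv2c stayed higher (1.26 ± 0.13 SE, adjusted p = 0.000167). Syngr3 was then also called higher (0.28 ± 0.09 SE, adjusted p = 0.0281), though it lay below the moved median of all genes. The other members called lower with TMM scaling no longer passed, with adjusted p between 0.0529 and 0.93. Of these, Syn2, Syp and Sv2a changed sign, to 0.01, 0.10 and 0.15 on the log2 scale, and Syngr1 and Slc17a7 were at -0.25 and -0.07. Each of them lay below the moved median too. Against the moved median of all genes, Sv2b lay far below and Sv2c far above it under either scaling.

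**Figure D2:**
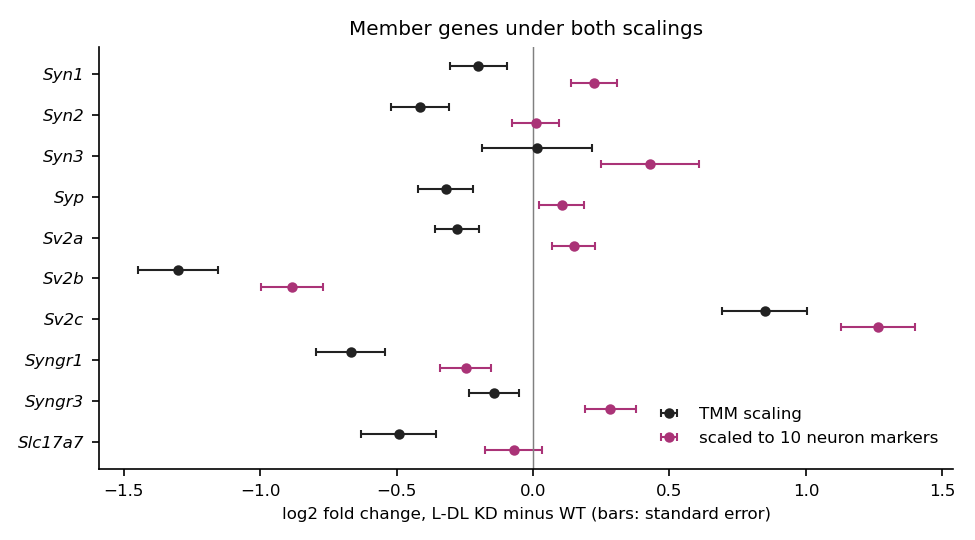
Log2 fold change of L-DL KD against WT (horizontal axis, with standard error bars) for each member, with TMM scaling in black and with scaling to 10 neuron markers in purple. Under both scalings Sv2b lies left and Sv2c right of every other member, at -1.30 and 0.85 with TMM scaling.

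Of the 3 synapsins, Syn2 passed the test and Syn1 and Syn3 did not, and a difference in response between them was not shown by the ratios given here. Syn1 (ENSMUSG00000037217, chromosome X, 20860511 to 20921004 on the minus strand, GRCm38) stood at 402, 376 and 367 CPM in WT and at 372, 343 and 281 CPM in L-DL KD. The groups overlapped, and the log2 fold change of -0.20 ± 0.10 (SE) did not pass (edgeR adjusted p = 0.186), although it did without L-DL KD replicate 1 (-0.29, adjusted p = 0.037). Syn2 stood at 515, 463 and 514 CPM in WT and at 422, 377 and 321 CPM in L-DL KD. All L-DL KD libraries lay below all WT libraries, and Syn2 fell by 0.41 ± 0.11 (SE) on the log2 scale (adjusted p = 0.0197). That call was lost when WT replicate 1, WT replicate 3 or L-DL KD replicate 2 was left out (adjusted p 0.0543 to 0.0743).

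Syn3, a synapsin known for its expression during neuronal development, was the lowest member per kb of exon. Its CPM was 11.4, 11.3 and 12.3 in WT and 12.6, 14.4 and 8.28 in L-DL KD, and the log2 fold change was 0.02 ± 0.20 (SE, adjusted p = 0.961). The L-DL KD libraries lay on both sides of the WT libraries. Within each library, the ratio of Syn1 to Syn2 counts was 0.781, 0.811 and 0.715 in WT and 0.881, 0.909 and 0.876 in L-DL KD. It was 1.16-fold higher in L-DL KD, and the groups did not overlap, but a two-sided exact permutation test of 3 against 3 libraries cannot go below p = 0.1, which it reached (0.16 adjusted over the 8 ratios compared). The Syn1 to Syn3 ratio was 30.0 to 35.3 in WT and 23.8 to 33.9 in L-DL KD (exact permutation p = 0.4, adjusted 0.457).

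Each synapsin gene holds a gene for a tissue inhibitor of metalloproteinases, a secreted inhibitor of matrix-degrading enzymes, on its opposite strand. Timp1, inside Syn1, stood at 7.21, 9.59 and 4.0 CPM in WT and at 34.1, 24.1 and 17.5 CPM in L-DL KD, a rise of 1.86 ± 0.34 (SE) on the log2 scale (edgeR adjusted p = 0.00503), and shares no exonic base with Syn1. Timp3, inside Syn3, rose from 103, 93.6 and 128 CPM to 183, 150.3 and 204 CPM (log2 fold change 0.73 ± 0.14 SE, adjusted p = 0.0069), and 1733 of the 12282 exonic bases of Syn3 are also exonic in Timp3. Timp4, inside Syn2, was at 33.7 to 38.3 CPM in WT and 38.7 to 53 CPM in L-DL KD (log2 fold change 0.28 ± 0.13 SE, adjusted p = 0.141), with 90 shared exonic bases. The library kit named in the labels does not mark strand, so reads from a shared stretch cannot be told apart, and the Syn3 count is uncertain for this reason.

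Synaptophysin and the synaptogyrins are the tetraspan members. Syp (ENSMUSG00000031144) stood at 463, 402 and 435 CPM in WT and at 372, 369.8 and 299 CPM in L-DL KD. The groups did not overlap and Syp fell by 0.32 ± 0.10 (SE) on the log2 scale (edgeR adjusted p = 0.0438), close to the threshold. The call was lost without any one of WT replicates 1, 2 and 3 and L-DL KD replicates 2 and 3 (adjusted p 0.0603 to 0.146), and with library size scaling (adjusted p = 0.0522). Of its 5211 exonic bases, 875 are shared with the antisense gene Gm14703, which held only 19 to 32 counts per library. The ratio of Syp to Syn1 was 1.07 to 1.18 in WT and 1 to 1.08 in L-DL KD, and overlapped (exact permutation p = 0.2, adjusted 0.267).

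Syngr1 (ENSMUSG00000022415) passed the test and its paralog Syngr3 did not. Syngr1 stood at 358, 317 and 332 CPM in WT and at 240.0, 225 and 169 CPM in L-DL KD, and every L-DL KD library lay below every WT library. It fell by 0.67 ± 0.13 (SE) on the log2 scale (edgeR adjusted p = 0.00603), and the call held with each library left out in turn (adjusted p 0.00129 to 0.0296). Syngr3 stood at 104, 98.8 and 97.2 CPM in WT and at 92.6, 99.8 and 79.3 CPM in L-DL KD, with overlapping groups and a log2 fold change of -0.14 ± 0.09 (SE, adjusted p = 0.28). The ratio of Syngr1 to Syngr3 counts was 3.45, 3.21 and 3.42 in WT and 2.59, 2.25 and 2.13 in L-DL KD, without overlap, and its mean was 0.691 times that of WT. The exact permutation p of this ratio was 0.1, the smallest that 3 against 3 libraries can give, and 0.16 adjusted over the ratios.

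The largest changes among the members were in the SV2 family. Sv2b (ENSMUSG00000053025, chromosome 7, 75114894 to 75309262 on the minus strand) stood at 307, 258 and 313 CPM in WT and at 141, 122 and 94.3 CPM in L-DL KD. Every L-DL KD library lay far below every WT library, the mean was 0.406 times the WT mean, and Sv2b fell by 1.30 ± 0.15 (SE) on the log2 scale (edgeR adjusted p = 0.000651). Sv2c (ENSMUSG00000051111, chromosome 13, 95954594 to 96132577 on the minus strand), the SV2 known mainly from the basal ganglia, stood at 35.7, 44.3 and 39.5 CPM in WT and at 84.3, 75.6 and 55.3 CPM in L-DL KD. All L-DL KD libraries lay above all WT libraries, the mean was 1.80 times the WT mean, and Sv2c rose by 0.85 ± 0.16 (SE) on the log2 scale (adjusted p = 0.00522). Both calls held with each library left out in turn, with adjusted p up to 0.00529 for Sv2b and up to 0.0281 for Sv2c.

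Sv2a (ENSMUSG00000038486), the most widely expressed SV2, moved less than either. It stood at 358, 343 and 346 CPM in WT and at 307, 299 and 258 CPM in L-DL KD, without overlap. It fell by 0.28 ± 0.08 (SE) on the log2 scale (edgeR adjusted p = 0.0317), and that call was lost without any one of WT replicates 1, 2 and 3 and L-DL KD replicates 2 and 3 (adjusted p 0.0505 to 0.107).

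Ratios of counts within a library, not corrected for gene length, do not depend on how libraries are scaled. Sv2a counts were 1.17, 1.33 and 1.1 times those of Sv2b in WT and 2.19, 2.45 and 2.73 times in L-DL KD, so the ratio was 2.05-fold higher. Sv2a counts were 10.04, 7.75 and 8.76 times those of Sv2c in WT and 3.65, 3.95 and 4.66 times in L-DL KD, so this ratio was 0.462 times that of WT. Neither ratio overlapped between groups, and each reached the smallest possible two-sided exact permutation p of 0.1 (0.16 adjusted). Per kb of exon, Sv2b made up 30.5% ± 2.1 (SD, n = 3) of the summed SV2 level in WT and 16.8% ± 1.4 in L-DL KD, and Sv2c made up 3.6% ± 0.53 and 8.77% ± 0.83. Sv2a made up 65.9% ± 1.7 and 74.4% ± 2.2, while the summed level went from 109 to 118 CPM per kb in WT to 72.5 to 91.8 CPM per kb in L-DL KD.

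**Figure D3:**
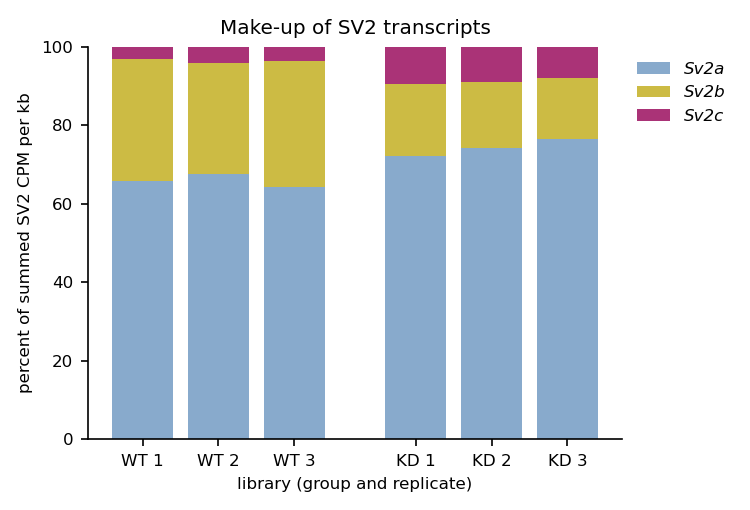
Share of Sv2a, Sv2b and Sv2c in the summed SV2 level (vertical axis, percent of CPM per kb of exon) in each of the 6 libraries (horizontal axis). The Sv2b share is 28.1% to 32.2% in WT and 15.5% to 18.3% in L-DL KD, and the Sv2c share is 3.13% to 4.17% in WT and 7.86% to 9.47% in L-DL KD.

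Slc17a7 (ENSMUSG00000070570, chromosome 7, 45163949 to 45176142 on the plus strand) had the highest level of the members per kb of exon. It stood at 1096, 947 and 1051 CPM in WT and at 891, 701 and 607 CPM in L-DL KD, and the groups did not overlap. It fell by 0.49 ± 0.14 (SE) on the log2 scale (edgeR adjusted p = 0.0281), and the call was lost without any one of WT replicates 1, 2 and 3 and L-DL KD replicates 2 and 3 (adjusted p 0.0507 to 0.101). Beside it, the ratio of Slc17a7 to Slc32a1, the vesicular GABA transporter, was 17.3, 17.9 and 22.5 in WT and 25.3, 33.8 and 47.8 in L-DL KD. This ratio was 1.81-fold higher without overlap (exact permutation p = 0.1, the smallest possible, adjusted 0.16). The ratio to Slc17a6 (VGLUT2) was 36.3 to 57.5 in WT and 39.4 to 96.8 in L-DL KD (exact permutation p = 0.8, adjusted 0.8).

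Slc17a7 also held the only member splicing event that passed the test. The event is the skipping of exon 3 of Slc17a7-201 (chromosome 7, 45169817 to 45169935, 119 bases), a coding exon, shown here because its inclusion changed. The first sequence, from the GENCODE vM21 transcript on GRCm38, has exon 3 in capitals between the last 60 bases of exon 2 and the first 60 of exon 4, and the second has the same ends joined without exon 3, with the bases of exon 4 in capitals.
Exon 3 included: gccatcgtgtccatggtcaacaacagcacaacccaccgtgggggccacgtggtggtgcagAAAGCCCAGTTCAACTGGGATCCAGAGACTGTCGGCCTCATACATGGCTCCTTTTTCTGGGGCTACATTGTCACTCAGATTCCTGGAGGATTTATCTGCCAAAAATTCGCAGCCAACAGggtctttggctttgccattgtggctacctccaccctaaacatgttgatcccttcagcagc
Exon 3 skipped: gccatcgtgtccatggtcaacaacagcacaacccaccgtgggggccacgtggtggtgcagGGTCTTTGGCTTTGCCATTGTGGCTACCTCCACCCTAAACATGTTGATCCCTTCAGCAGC
The length of exon 3 is not a multiple of 3. With it the reading frame of Slc17a7-201 runs for 560 codons, and without it the frame shifts after codon 105 and meets a stop codon in exon 7 after 217 codons. None of the 5 Slc17a7 transcripts of GENCODE vM21 joins exon 2 to exon 4.

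Percent spliced in (PSI) is the share of transcripts that keep the exon, here on a scale from 0 to 1, from junction counts divided by the effective length of each form. Reads of the skipping form numbered 29, 29 and 28 in WT and 76, 71 and 54 in L-DL KD, beside 1716, 1514 and 1578 and 1573, 1092 and 825 reads of the inclusion form. The PSI was 0.971, 0.967 and 0.969 in WT, with exact 95% binomial intervals of 0.958 to 0.98, 0.953 to 0.978 and 0.956 to 0.979. In L-DL KD it was 0.92, 0.896 and 0.895, with intervals of 0.902 to 0.936, 0.871 to 0.917 and 0.866 to 0.92. The intervals cover counting error only, and none in L-DL KD reached those in WT.

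The mean PSI of exon 3 was 0.969 ± 0.0019 (SD, n = 3) in WT and 0.904 ± 0.014 in L-DL KD, a change of -0.0652, so that the skipped share went from 3.11% to 9.63%. On the log2 odds scale inclusion fell by 1.71 ± 0.28 (SE), with an edgeR adjusted p of 0.0296 over the 18829 events tested. Thus 1 of the 11 member events tested passed, against 0.255% of all events tested. An unadjusted edgeR p under 0.05 was found for 2 of 11, beside 2496 of all 18829 events tested. The change kept its sign and size with each library left out (log2 odds -1.86 to -1.63), but only without the first L-DL KD library did it still pass (adjusted p = 0.0296), and with any other library left out the adjusted p was 0.116 to 0.195. With limma on the log2 ratio of the forms the change was -1.71 with an adjusted p of 0.169, and that test called 0 of all events, 2377 of which had an unadjusted p under 0.05. Dividing by no effective lengths gave a PSI change of -0.0386.

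**Figure D4:**
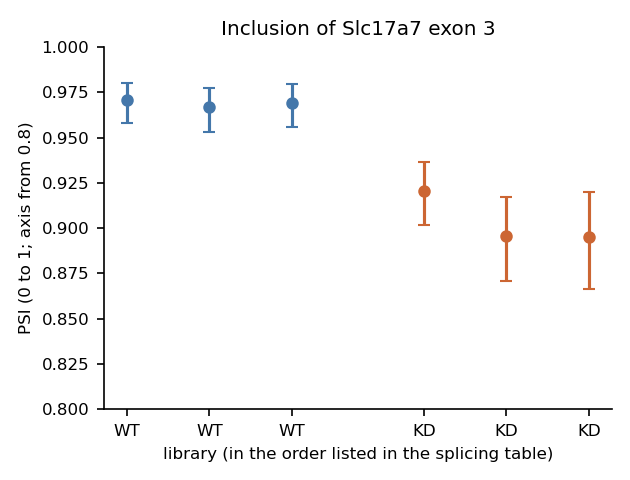
PSI of Slc17a7 exon 3 (vertical axis, from 0.8 to 1) in each WT (blue) and L-DL KD (orange) library, in the order in which the splicing table lists them, with exact 95% binomial intervals as bars. The WT libraries lie at 0.967 to 0.971 and the L-DL KD libraries at 0.895 to 0.92.

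The other 6 Slc17a7 events did not pass. The 75-base exon 3 of the longer coding transcript (45169511 to 45169585), which lies in the intron before that exon, had 0 to 7 inclusion reads against 449 to 973 skipping reads per library, a PSI of 0 to 0.00739. The retained intron after exon 9 of Slc17a7-201 (45172191 to 45172891) had a PSI of 0.00311 to 0.00845 in WT and 0.007 to 0.014 in L-DL KD (edgeR adjusted p = 0.583). Exons 5, 6 and 11 of Slc17a7-201 were included at a PSI of at least 0.994 in every library. The event that lists exons 5 and 6 as exclusive gave 0.278 to 0.312 in WT and 0.295 to 0.331 in L-DL KD (adjusted p = 0.92). Each of these exons alone was almost always included, so that value is a balance of junction reads, not a share of transcripts.

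The events of the other members mostly lay in exons that were almost always included. Syp exons 3, 5 and 6 of Syp-201 were included at a PSI of at least 0.997 in every library, over 1777 to 4971 reads each. The event that lists exons 5 and 6 as exclusive gave 0.419 to 0.459 in WT and 0.445 to 0.496 in L-DL KD (edgeR adjusted p = 0.802). With both exons almost always included, that value is a balance of junction reads, not a share of transcripts. Sv2a exon 2, with 969 bases, had 0, 6 and 3 skipping reads in WT and 0 in each L-DL KD library (PSI 0.98 to 1, adjusted p = 0.319, unadjusted 0.0267), and Sv2a exon 12 had 1 skipping read in all. Sv2b exon 9 (75136298 to 75136462) had 1 skipping read in all, among 193 to 599 reads per library, too few to test. The Sv2c events rested on 16 to 71 reads per library. Sv2c exons 2 and 3 had 1 and 3 skipping reads in all. The event that lists them as exclusive gave 0.25, 0.714 and 0.303 in WT and 0.288, 0.352 and 0.344 in L-DL KD (adjusted p = 0.824), again a balance of junction reads.

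Syn3 exon 11 of Syn3-201 (chromosome 10, 86064796 to 86064930) rested on 20 to 50 reads per library, with 2 skipping reads in 1 WT library and 5 in 1 L-DL KD library and 0 in the others (edgeR adjusted p = 0.935). In all, 7 member events had too few skipping reads to be tested (1 to 4 over the 6 libraries). No event of Syn1, Syn2, Syngr1 or Syngr3 was in the table.

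Per kb of annotated exon, the order of the mean levels was the same in both groups: Slc17a7, Syn1, Syp, Sv2a, Syn2, Syngr1, Syngr3, Sv2b, Sv2c and Syn3. In WT it ran from 191 ± 14 CPM per kb (SD, n = 3) for Slc17a7 to 0.949 ± 0.043 for Syn3, and the libraries of neighbours overlapped only for Syp with Sv2a and for Syn2 with Syngr1. In L-DL KD it ran from 136 ± 27 to 0.958 ± 0.26 CPM per kb, and the libraries overlapped for Slc17a7 with Syn1, for Syp with Sv2a, and for each neighbouring pair from Sv2a to Syngr3. The level of Sv2b was 35.0 ± 3.6 CPM per kb in WT against 4.11 ± 0.45 for Sv2c, and 14.2 ± 2.8 against 7.4 ± 1.5 in L-DL KD, where the lowest Sv2b library (11.3) still lay above the highest Sv2c library (8.69).

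The change was not limited to the members. Of 36 other synaptic vesicle genes 34 were tested, and 19 were lower and 3 higher in L-DL KD, against 15.0% and 15.6% of all genes, with a median log2 fold change of -0.35. Without WT replicate 1, 11 were lower, and without WT replicate 3, 1 was higher. Scaled to the neuron markers, 7 were lower and 10 higher, with a median of 0.08. Of all 17621 genes tested, 675 were lower and 8195 higher under that scaling, with a median of 0.44. The largest falls were of Syt2, a calcium sensor of fast synapses, from 25.0, 29.9 and 30.1 CPM to 8.43, 9.31 and 7.15 CPM (log2 fold change -1.77 ± 0.14 SE, edgeR adjusted p = 0.000205), and of Slc17a8 (VGLUT3), from 6.04, 6.24 and 7.81 CPM to 2.53, 1.51 and 1.97 CPM (-1.73 ± 0.25 SE, adjusted p = 0.00167). No L-DL KD library of either gene reached a WT library.

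Vamp1, a vesicle SNARE, fell by 1.39 ± 0.14 (SE) on the log2 scale, Sypl2, a synaptophysin relative, by 1.41 ± 0.24, and Slc32a1 by 1.25 ± 0.31 (edgeR adjusted p = 0.000431, 0.00395 and 0.0192). The Slc32a1 call was lost without WT replicate 1, WT replicate 2 or L-DL KD replicate 2 (adjusted p 0.0536 to 0.0727). Slc17a6 was at 19.2, 26.1 and 18.3 CPM in WT and 9.2, 17.8 and 13 CPM in L-DL KD, and its log2 fold change of -0.67 ± 0.24 (SE) did not pass (adjusted p = 0.0719), although it did with DESeq2 (adjusted p = 0.0211), with no filter on low counts (0.0294) and without L-DL KD replicate 2 (0.0276). Under the neuron marker scaling Syt2, Slc17a8, Sypl2, Vamp1 and Slc32a1 remained lower, by 0.85 to 1.35 on the log2 scale.

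The 3 that rose were Slc10a4, a vesicular transporter-like protein of monoaminergic and cholinergic neurons, Syngr2, a synaptogyrin found mainly outside neurons, and Sypl, a synaptophysin-like protein of many tissues. Sypl rose from 56.5, 52.3 and 63 CPM to 83.9, 72.9 and 83.7 CPM (log2 fold change 0.49 ± 0.09 SE, edgeR adjusted p = 0.00645), and Syngr2 from 25.2, 23.2 and 18.2 CPM to 32.1, 31.1 and 40.6 CPM (0.64 ± 0.15 SE, adjusted p = 0.0162). The Syngr2 call was lost without WT replicate 3 (adjusted p = 0.0522). Slc10a4 rested on 7 to 21 counts in WT and 34 to 68 in L-DL KD (1.49 ± 0.44 SE, adjusted p = 0.034), and lost its call without WT replicate 2, WT replicate 3, L-DL KD replicate 1 or L-DL KD replicate 2 (adjusted p 0.0535 to 0.0869). Syngr4 and Slc18a3, with at most 21 counts in any library, were not tested.

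**Figure D5:**
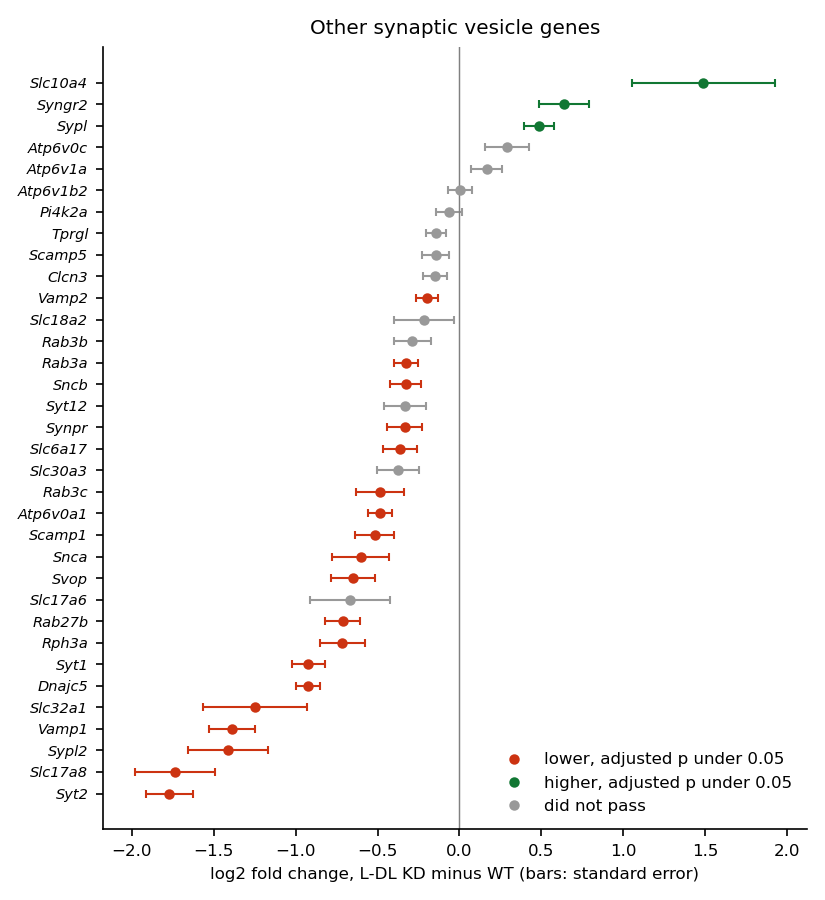
Log2 fold change of L-DL KD against WT (horizontal axis, with standard error bars, TMM scaling) for the 34 other synaptic vesicle genes tested. The 19 genes in red passed as lower, the 3 in green as higher, and the 12 in grey did not pass.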

How the data were processed

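RNA from hippocampus of 3 WT and 3 L-DL KD libraries was sequenced as 150 nt paired reads. The authors deposited whole-number counts of reads per gene, not normalized, and a splicing table whose junction counts of the inclusion and skipping form, together with the effective lengths of the forms, the authors made with rMATS. The submitters' processing notes list Bowtie 1.1.2, HISAT2 2.1.0 and HTSeq 0.6.1 and the build mm10. The p-values, FDR and inclusion differences in that table are the authors' own comparison and were not used. The splicing columns hold the libraries as 2 lists without names. The first list was taken as L-DL KD, since rMATS subtracts the second from the first and the study defines the change as L-DL KD minus control. As a check, the deviations of junction totals per gene correlated across 5844 genes (which are not independent replicates) at 0.857 to 0.92 with the counts of the library at the same place, and at -0.786 to -0.457 across groups.

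Genes reaching 10 counts in 3 or more libraries were tested with edgeR 4.0.16 (R 4.3.3, quasi-likelihood, TMM scaling, no covariate), and p-values were adjusted by Benjamini-Hochberg over all 17621. CPM are TMM-scaled, and CPM per kb divides by the annotated exon length (GENCODE vM21). Events with a mean of at least 20 junction counts and at least 1 of each form per library were tested with edgeR on both forms with a library effect. Both fits were also run on simulated data, where the events changed started further from full inclusion than Slc17a7 exon 3. No result here rests on that run. Ratios were tested with scipy 1.17.1. No column of per-sample values was left unused. The replicate numbers did not pair the libraries (correlations of deviations 0.0535, 0.127 and -0.107). The genes and events named are the members, all their events, genes overlapping them, and of the other vesicle genes up to 5 with the largest change each way among those past the test (only 3 rose) and 3 transporters whatever their test. Members and lists were chosen with earlier results of these data known. DESeq2 1.42.0, limma 3.58.1, other scalings, filters and left-out libraries served as alternatives.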

Additional observations from a re-analysis of the deposited data

How the results depend on the processing

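The count of members called lower was 6, and 2 to 7 with 1 library left out. That of other vesicle genes was 19 lower and 3 higher, and 11 to 22 and 1 to 4 with 1 left out. The member event was called in 1 of 6 fits with 1 library left out (0 to 1 events called), and 0 member events were called with limma. Of all events 48 were called, 0 with limma and 0 to 52 with 1 library left out, and of all genes 5379, or 3498 to 6477. Scaled to neuron markers, an alternative chosen after seeing the data, 1 member was lower and 2 higher, and of the other vesicle genes 7 were lower and 10 higher. Beside these, 675 of all 17621 genes tested were lower and 8195 higher. That scaling moved the median of all genes to 0.44. It reversed the sign of Syn1 (0.22), Syn2 (0.01), Syp (0.10), Sv2a (0.15) and Syngr3 (0.28). Each of them lay below the median of all genes under either scaling. Log2 fold changes near 0 also changed sign: Syn3 (-0.15 to 0.22) and Hnrnpdl (-0.13 to 0.15) with 1 library left out. The log2 odds of the Sv2c event listed as exclusive exons (-1.10 to 0.31) and of Syn3 exon 11 (-3.31 to 0.10) changed sign with 1 WT library left out, the latter also with limma (0.22). The cause was not tested. With the replicate block, the Syn3 log2 fold change was -0.015, 5 members were lower (Syp lost its call, adjusted p = 0.052) and 1 higher, Slc17a6 was called (-0.70, adjusted p = 0.0229), and the ratio of Sv2a to Sv2b differed by 1.03 on the log2 scale. No paired analysis was run for the splicing events, whose columns carry no replicate numbers, although their junction totals matched the gene counts at the same place.

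With 3 libraries a group, the ratio tests could not reach 0.05. Depth limits the Sv2c and Syn3 events, where a few reads set the PSI. The control virus had the higher titre, and titre and group cannot be told apart.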
